A study of Mus musculus with 4 samples.

Results

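Fibroblast growth factors (FGFs) are secreted proteins that bind receptor tyrosine kinases at the cell surface together with heparan sulfate, and the receptors pass the signal through docking proteins to the Ras-ERK cascade. FGF7 and FGF10 are typically made by connective tissue and act on the epithelial form of FGFR2 nearby, while the endocrine FGFs need the membrane proteins Klotho (Kl) or beta-Klotho (Klb) as co-receptors. Sprouty and Spred proteins are inhibitors of the cascade, and several Sproutys are themselves induced by FGF signals. In the developing urinary tract, FGF signalling takes part in the growth of the ureteric epithelium and of the mesenchyme around it.

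The genes described here are the FGF ligands (Fgf followed by a number), the receptors Fgfr1 to Fgfr4 and Fgfrl1, the binding proteins Fgfbp1 and Fgfbp3, Kl and Klb, Spry1 to Spry4, Spred1 to Spred3, and the docking protein Frs3. They were chosen by symbol, with the brightest probe set per gene, and came to 39 of the 19296 genes with a probe set of their own. Frs2 was not analysed here. The members were 22 ligands and 17 other genes.

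RNA came from the ureter of 4 male mice of the strain 129Sv/C57BL6 mix, with 1 array per mouse. The 2 knockout mice (miR-143/145-/-) were 2.5 months old and had hydronephrosis, a distended kidney from retained urine. The 2 wild type mice (miR-143/145+/+) were 4.5 months old and had normal kidneys. The deleted locus encodes a pair of microRNAs that are abundant in smooth muscle, and the labels name no restriction of the deletion to a cell type. Genotype, age and kidney state cannot be told apart in this design, so each difference below is one between these 2 groups of mice.

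Values are log2 expression values, so a difference of 1 is a doubling, and all adjusted p are from limma fitted across all 19296 genes with Benjamini-Hochberg adjustment. The background level, log2 6.58, is the 95th percentile of the olfactory receptor genes, a class largely silent outside the olfactory epithelium. The genes of the deleted microRNAs were below this level in both knockout mice: Mir145a was at least 3.42-fold lower and Mir143 at least 2.24-fold lower than in wild type. Defining markers of the ureter wall were bright, with 8 of 8 smooth muscle markers and 10 of 10 urothelial markers above background on all 4 arrays. So were 10 of 10 adipocyte markers. Of 13 kidney markers, 6 were above background on all arrays, and their summed level (log2 of the sum of linear values) was 12.77 and 10.47 in the knockout mice and 10.34 and 11.22 in the wild type mice. Knockout replicate 1 thus stood apart from the other mice in kidney transcripts. The precision of every value is limited by the number of arrays.

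Among the 39 genes, Fgf7 rose and Klb fell in knockout ureter, and 37 did not pass an adjusted p of 0.05. Over all genes 2.38% passed, 1.90% higher and 0.477% lower. At an adjusted p of 0.1 a further 5 members were higher (Fgf1, Fgfr2, Fgfr3, Spred1 and Spred2) and 3 lower (Fgf8, Fgf14 and Fgf23), while 11.9% of all genes met that threshold, 6.83% higher and 5.09% lower. The median difference of the members was -0.20, against -0.02 for all genes. Of the members 10 were higher and 29 lower, where 9086 of all genes were higher and 10210 lower. The genotypes did not overlap for 8 of the higher and 21 of the lower members, where 60.0% of all genes did not overlap, 28.0% higher and 32.0% lower. The calls rest on both wild type mice: with wild type replicate 1 or wild type replicate 2 left out, limma passed 0 of all genes, against 4253 and 3079 at an unadjusted p under 0.05, and Fgf7 had an adjusted p of 0.183 and 0.205, Klb of 0.183 and 0.229.

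**Figure D1:**
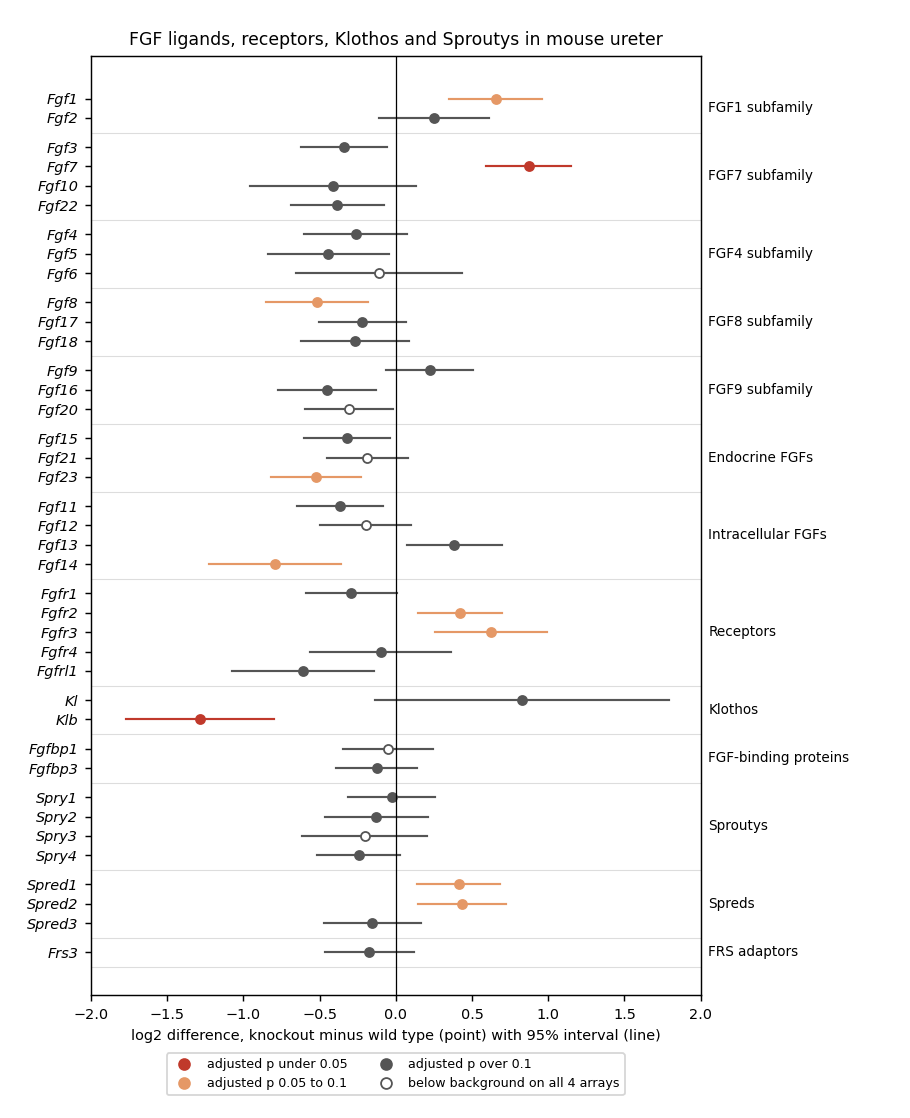
Log2 difference, knockout minus wild type, of the 39 genes in groups by role (horizontal axis; point, estimate; line, 95% interval of the limma fit). Fgf7 lies at 0.87 and Klb at -1.29, the 2 genes past an adjusted p of 0.05, and open points mark the 6 genes below background on all 4 arrays.

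The member that rose was Fgf7, also called keratinocyte growth factor, a ligand that mesenchyme makes for epithelium. Its probe set (10475643) measured 9.31 and 9.44 in the knockout mice, against 8.47 and 8.53 in the wild type mice. Both knockout mice lay above both wild type mice, by more than the spread within either genotype. The difference was 0.87 (SE 0.12, adjusted p = 0.0312), or 1.83-fold. It lay between 0.76 and 0.94 with the arrays renormalized or centred, or with a mouse left out. The other alternatives left the difference of this gene, which has 1 probe set, as it was.

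Fgf10 did not pass beside it. This gene, the other mesenchymal ligand for the epithelial form of FGFR2, measured 9.24 and 8.59 in knockout ureter and 9.52 and 9.13 in wild type ureter. The genotypes overlapped, and the difference was -0.41 (SE 0.23, adjusted p = 0.293). Without knockout replicate 1 the difference was -0.74. The other members of this ligand subfamily were dim: Fgf22 differed by -0.38 and Fgf3 by -0.34, and neither passed.

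Fgf1 and Fgf2 are ligands without a classical secretion signal, and FGF1 can bind all the receptors. Fgf1 measured 9.73 and 9.96 in knockout ureter, against 9.24 and 9.14 in wild type ureter. The knockout mice were both higher, by 0.65 (SE 0.13), and the adjusted p of 0.0529 missed the threshold. Fgf1 passed with the replicate block (adjusted p = 0.0267), with dim genes removed (0.0453), with an intensity trend (0.0454) and with robust eBayes (0.0376). It did not pass with averaged probe sets (0.0512), array weights (0.0543), centred arrays (0.0554) or repeated quantile normalization (0.0750). With a mouse left out, the difference ranged from 0.54 to 0.77. Fgf2 measured 9.13 and 9.47 in knockout and 9.14 and 8.96 in wild type ureter, with overlapping genotypes and a difference of 0.25 (adjusted p = 0.327).

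None of the remaining secreted ligands passed. Fgf8, a ligand best known from limb and brain patterning, was at 7.90 and 7.78 in knockout ureter and at 8.21 and 8.51 in wild type ureter, a difference of -0.52 (adjusted p = 0.0880). Its subfamily members Fgf17 and Fgf18 differed by -0.22 and -0.27. Fgf4 and Fgf5 differed by -0.26 and -0.44, and Fgf6 was below background on all arrays. Fgf9, an epithelial ligand for mesenchyme in several organs, was at 7.39 and 7.54 in knockout and 7.29 and 7.19 in wild type ureter, a difference of 0.22 (adjusted p = 0.278). Fgf16 of the same subfamily differed by -0.45 (adjusted p = 0.103), and Fgf20 was below background on all arrays.

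Dim genes read lower in knockout more often than not across the whole table. Of the 13 ligands with a mean between background and 8, 11 were lower in knockout and the median difference was -0.34. Of all 4482 genes in the same range, 2675 were lower and the median was -0.08. In the range over 8, the 5 ligands Fgf1, Fgf2, Fgf7, Fgf8 and Fgf10 had a median of 0.25, against 0.08 for all 9325 genes. The part of this array-wide difference in the values of single dim ligands was not tested.

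**Figure D2:**
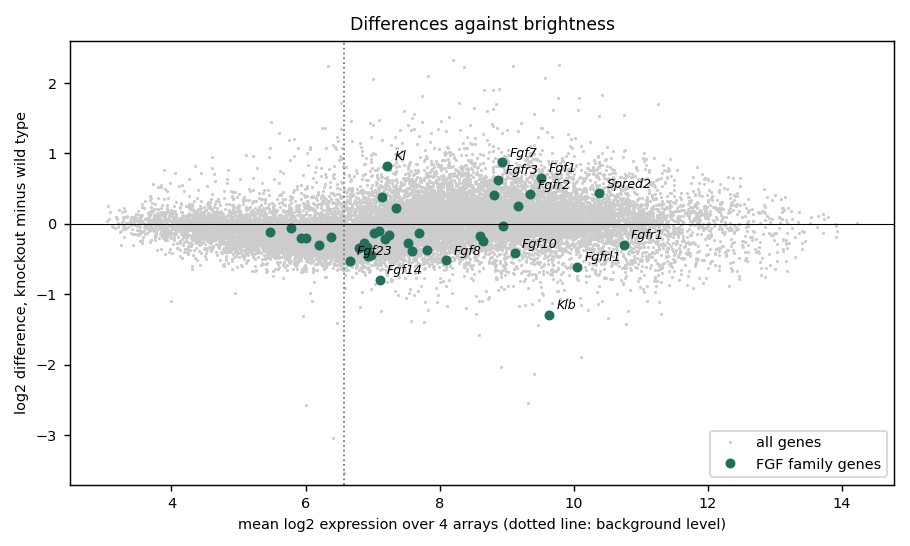
Log2 difference, knockout minus wild type (vertical axis), against the mean log2 expression over the 4 arrays (horizontal axis) for all genes (grey) and the 39 FGF family genes (green). Most dim members lie below 0, in a range where all genes have a median of -0.08, while Fgf7 and Klb lie at means over 8.

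The intracellular FGFs, which are not secreted and bind voltage-gated sodium channels in nerve and muscle, differed in direction and none passed. Fgf14 measured 6.98 and 6.44 in knockout ureter, against 7.57 and 7.44 in wild type ureter. Both knockout mice were lower (difference -0.79, adjusted p = 0.0686), and knockout replicate 2 was below background. Without knockout replicate 1 the difference was -1.06. With robust eBayes on all 4 arrays Fgf14 passed (adjusted p = 0.0485). Fgf13 was at 7.34 and 7.34 in knockout and 7.09 and 6.82 in wild type ureter, a difference of 0.38 (adjusted p = 0.128). Fgf11 differed by -0.37 (adjusted p = 0.117), and Fgf12 was below background on all arrays. Beside them, 5 tested nerve and glia markers had a median difference of -0.23.

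The receptors split in direction, and none of the 5 passed. Fgfr2, whose epithelial form binds FGF7 and FGF10, measured 9.62 and 9.50 in knockout ureter and 9.18 and 9.11 in wild type ureter. The knockout mice were both higher, by 0.42 (SE 0.12, adjusted p = 0.0909). Fgfr3, a receptor of urothelium, measured 9.17 and 9.20 in knockout ureter and 8.36 and 8.76 in wild type ureter. The difference was 0.63 (SE 0.16, adjusted p = 0.0750), and the genotypes did not overlap. The probe set summarises the whole transcript of each receptor, so the epithelial and mesenchymal splice forms were not separated.

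Fgfr1, the main receptor of mesenchymal cells, was at 10.72 and 10.49 in knockout ureter and at 10.89 and 10.90 in wild type ureter. It was slightly lower in both knockout mice (difference -0.29, adjusted p = 0.196). Fgfrl1, a receptor-like protein that lacks the kinase domain, measured 10.05 and 9.44 in knockout ureter, against 10.40 and 10.31 in wild type ureter. The difference was -0.61 (SE 0.20, adjusted p = 0.116), with knockout replicate 2 far below knockout replicate 1. The difference was -0.91 without knockout replicate 1 and -0.31 without knockout replicate 2. Fgfr4 overlapped between genotypes (difference -0.099, adjusted p = 0.780).

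**Figure D3:**
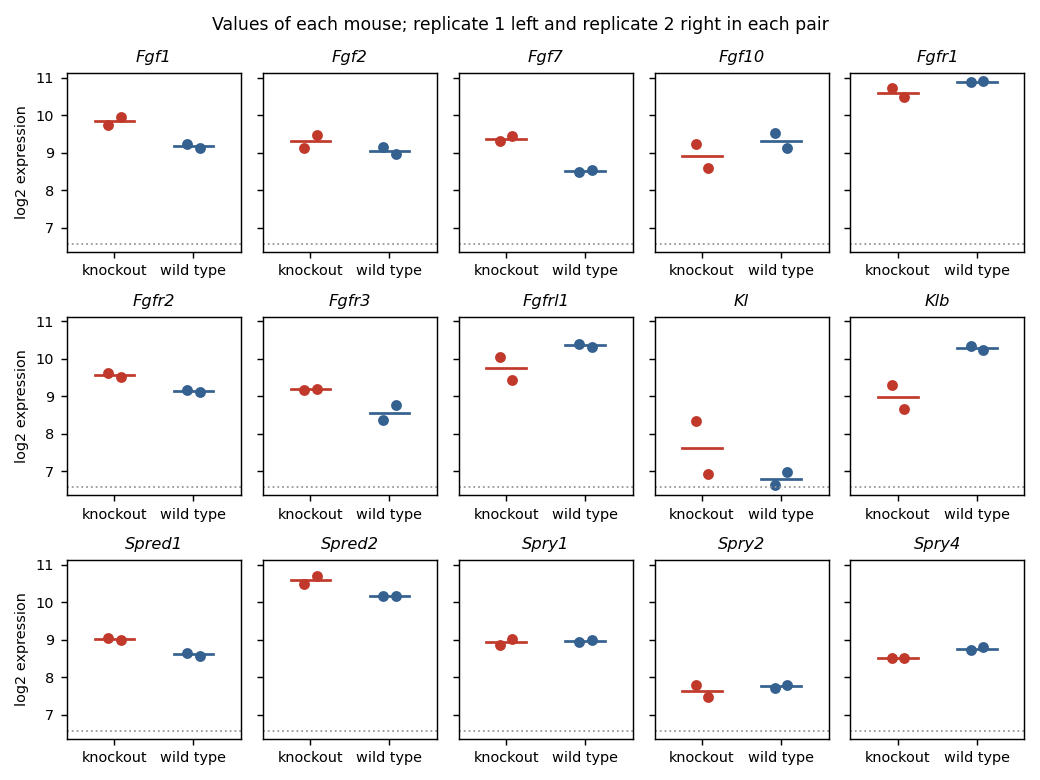
Log2 expression (vertical axis, shared) of 15 genes in each mouse (points) with the mean of the genotype (bar), knockout left and wild type right in each panel; the dotted line is the background level. In knockout ureter both values of Fgf7, Fgf1, Fgfr2, Fgfr3, Spred1 and Spred2 lie above those of wild type, both of Klb and Fgfrl1 lie below, and Kl is high in knockout replicate 1.

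Klb, the co-receptor through which FGF21 and the intestinal hormone FGF15 act in fat and liver, had the largest difference of the 39 genes. Its probe set (10522127) measured 9.31 and 8.67 in the knockout mice, against 10.33 and 10.23 in the wild type mice. Both knockout mice lay below both wild type mice by more than the spread within either genotype, and knockout replicate 2 was the lower of them. Klb fell by 1.29 (SE 0.21, adjusted p = 0.0381), so it was 2.44-fold lower in knockout. The difference was -1.61 without knockout replicate 1 and -0.97 without knockout replicate 2.

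Klb is a gene of adipocytes, and adipocyte markers were lower beside it. All 10 tested markers had lower means in knockout, with differences from -0.73 to -0.23 and a median of -0.51, and 0 passed by limma (lowest adjusted p = 0.0869). Their summed level was 15.84 and 15.38 in the knockout mice, against 16.13 and 16.10 in the wild type mice. Knockout replicate 2 was thus the lower mouse for the adipocyte markers as well as for Klb. The difference of Klb was greater than that of each of the 10 markers, but whether it exceeds theirs was not tested. In whole tissue, fewer cells of a type and less RNA per cell cannot be told apart.

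The promoters of the 2 genes that passed are printed to show the sequence upstream of each. They are the 250 bases before the annotated start, from RefSeq on assembly GRCm38.p6, written 5′ to 3′ on the strand of the gene. The promoter of Fgf7 is chr2:126034408-126034657 and that of Klb is chr5:65348161-65348410, both on the plus strand; capitals mark a CCAAT box.
Fgf7: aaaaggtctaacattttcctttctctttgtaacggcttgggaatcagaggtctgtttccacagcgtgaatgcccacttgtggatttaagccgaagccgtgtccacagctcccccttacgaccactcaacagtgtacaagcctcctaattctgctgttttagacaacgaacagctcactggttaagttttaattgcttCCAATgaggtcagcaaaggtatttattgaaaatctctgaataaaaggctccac
Klb: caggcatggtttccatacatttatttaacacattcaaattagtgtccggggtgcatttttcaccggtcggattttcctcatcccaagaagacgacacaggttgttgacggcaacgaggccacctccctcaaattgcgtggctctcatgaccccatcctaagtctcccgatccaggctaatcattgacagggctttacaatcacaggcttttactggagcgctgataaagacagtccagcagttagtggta
The motifs searched, on both strands, were the TATA box as TATAAA, the GC box as GGGCGG, the CCAAT box as CCAAT, and the CArG box of serum response factor, which was in 0 of 37 member promoters and 1.39% of all. The Fgf7 window holds a CCAAT box 53 to 49 bases before the start, and none of the other letters searched. The Klb window holds none of them. A CCAAT box was in 35.4% of the 21262 promoters of protein-coding genes and in 11 of 37 promoters of the members. Both windows were less rich in G and C, at 43.6% and 48.0%, than the median of the member promoters, 62.4%, or of all these promoters, 55.6%. A GC box was in 24 of the 37 member promoters, which belong to 30 genes, and in 42.6% of all promoters.

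Kl, the co-receptor of FGF23 in the distal tubule of the kidney, was decided by 1 mouse. It measured 8.34 and 6.92 in knockout ureter, against 6.62 and 6.99 in wild type ureter. Only knockout replicate 1 stood above the wild type mice, and the difference of 0.83 had an SE of 0.41 (adjusted p = 0.242). The difference was 0.11 without knockout replicate 1 and 1.54 without knockout replicate 2. Of the 13 kidney markers, 10 had higher means in knockout and 3 lower. Both knockout mice lay above wild type for 1 of them and below for 2. The 2 were Aqp2 (7.53 and 7.40, against 7.65 and 7.95) and Nphs1 (6.62 and 6.76, against 7.02 and 7.38). The mouse high in Kl was high in others: Slc34a1, a phosphate transporter of the proximal tubule, was at 10.62 and 7.33 in knockout and at 7.33 and 8.65 in wild type ureter. Umod, a protein of the thick ascending limb, was at 7.99 and 5.90 in knockout and at 5.91 and 6.18 in wild type ureter, and Slc12a3 of the distal tubule was at 8.55 and 6.88 in knockout and at 6.88 and 7.07 in wild type ureter. The part of kidney tissue in the Kl value was not tested.

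The endocrine ligands themselves were at the edge of detection. Fgf23, a bone hormone, was below background in both knockout mice and at least 1.27-fold lower than in wild type, without passing (adjusted p = 0.0715). With the arrays centred on their medians it passed at an adjusted p of 0.0496. Fgf15 differed by -0.32 (adjusted p = 0.149), and Fgf21 was below background on all arrays. Of the binding proteins that release FGFs from the matrix, Fgfbp1 was below background on all arrays and Fgfbp3 differed by -0.13 (adjusted p = 0.504).

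**Figure D4:**
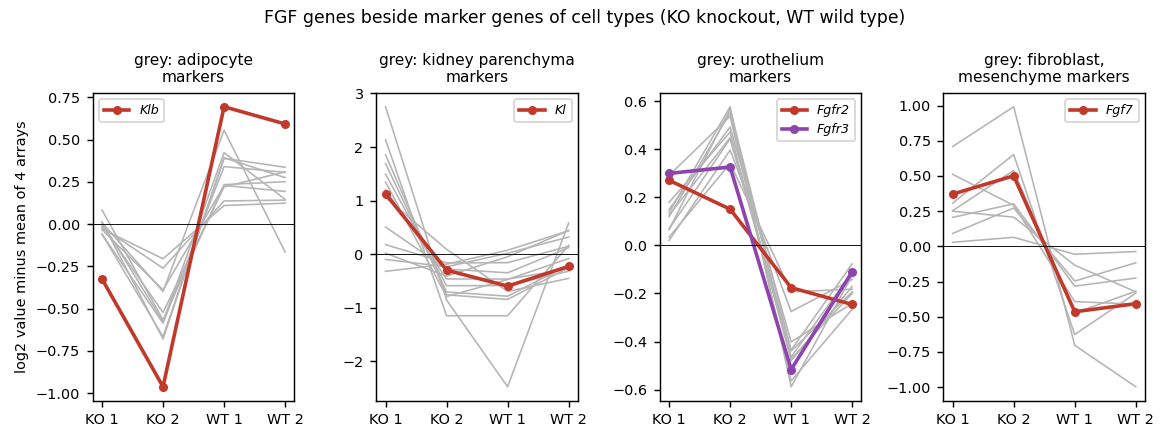
Log2 value minus the mean of the 4 arrays (vertical axis, scaled separately in each panel) in each mouse, knockout left and wild type right, for FGF genes (coloured) and marker genes of a cell type (grey); each line joins the values of 1 gene. Klb is lowest in knockout replicate 2 with the adipocyte markers, Kl is highest in knockout replicate 1 with most kidney markers, and Fgfr2, Fgfr3 and Fgf7 are higher in knockout beside markers that are higher too.

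Markers of the cells known to use the other receptors and ligands also differed. All 10 urothelial markers were higher in knockout, with differences from 0.38 to 0.83 and a median of 0.64. Where 1.90% of all genes rose, 1 of these 10 markers did, Trp63 (adjusted p = 0.0486). Their summed level was 15.60 and 15.97 in knockout and 15.12 and 15.34 in wild type ureter. The differences of Fgfr3, 0.63, and Fgfr2, 0.42, lay within this range. Within each genotype the summed level was higher in replicate 2, as was Fgfr3 (9.17 and 9.20 in knockout, 8.36 and 8.76 in wild type). Fgfr2 was lower in replicate 2 of each genotype (9.62 and 9.50 in knockout, 9.18 and 9.11 in wild type). All 8 markers of fibroblasts and mesenchyme were higher, with a median of 0.65. Beside the 1.90% of all genes, 4 of these 8 markers rose: Lum, Col1a1, Col1a2 and Tbx18. Their summed level was 14.79 and 14.88 in knockout and 14.38 and 14.36 in wild type ureter, and the difference of Fgf7, 0.87, lay between their extremes of 0.09 and 1.70. The differences of Fgf10, -0.41, and Fgfr1, -0.29, also genes of mesenchyme, lay below both extremes, and neither passed. The part of these markers in the values of Fgf7, Fgf10, Fgfr1, Fgfr2 and Fgfr3 was not tested.

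Among the inhibitors, Spred1 and Spred2 had higher means in knockout, Spred3 and the 4 Sproutys had lower ones, and none passed. Spry1 measured 8.86 and 9.02 in knockout ureter and 8.93 and 9.002 in wild type ureter, and the genotypes overlapped. Its difference was -0.027 with a 95% interval from -0.31 to 0.26. Spry4 was at 8.52 and 8.52 in knockout and 8.72 and 8.81 in wild type ureter, slightly lower in both knockout mice (difference -0.24, interval -0.51 to 0.024, adjusted p = 0.221). Spry2 differed by -0.13 with an interval from -0.46 to 0.21, and Spry3 was below background on all arrays. None of the 4 Sproutys passed, and none had a higher mean in knockout.

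Spred1 and Spred2, which hold Ras in its inactive state by recruiting neurofibromin, were higher without passing. Spred1 measured 9.06 and 8.98 in knockout ureter, against 8.64 and 8.58 in wild type ureter, a difference of 0.41 (SE 0.11, adjusted p = 0.0907). Spred2 measured 10.50 and 10.70 in knockout ureter, against 10.16 and 10.17 in wild type ureter, a difference of 0.43 (SE 0.12, adjusted p = 0.0934). The genotypes did not overlap for either gene, and a second, dimmer probe set of Spred2 differed by 0.54. Spred3 overlapped between genotypes (difference -0.16, adjusted p = 0.490). Frs3, which docks signalling proteins onto FGF receptors, differed by -0.17 (adjusted p = 0.406).

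Outside the family, 4 lists of genes around FGF signalling were described, without a test between lists. The lists were chosen with earlier results of these data known, so their counts of calls are descriptions only. Of 19 tested extracellular partners of FGFs and their receptors, 3 rose, 1 fell and 15 did not pass, where 1.90% of all genes rose and 0.477% fell. The median difference was 0.27, against -0.02 for all genes. Sulf1, an enzyme that trims sulfate groups from heparan sulfate, measured 9.98 and 10.14 in knockout ureter and 9.05 and 8.96 in wild type ureter. It rose by 1.05 (SE 0.12, adjusted p = 0.0208). Its relative Sulf2, named after its values were seen, differed by -0.065. Gpc3, a heparan sulfate proteoglycan anchored in the membrane, measured 11.54 and 11.45 in knockout ureter and 10.75 and 10.56 in wild type ureter, and rose by 0.84 (adjusted p = 0.0353).

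Flrt3, a membrane protein that binds FGF receptors, measured 8.73 and 9.01 in knockout ureter and 8.12 and 8.15 in wild type ureter. It rose by 0.73 at an adjusted p of 0.0489, and it did not pass without knockout replicate 2 (0.0832), after repeated quantile normalization (0.0700), with centred arrays (0.0507) and with array weights (0.0509). Cdh2, N-cadherin, which can bind FGFR1, measured 9.16 and 8.73 in knockout ureter and 10.14 and 9.92 in wild type ureter. It fell by 1.08 (SE 0.17, adjusted p = 0.0368). Like every other call, these 4 were lost when either wild type mouse was left out (adjusted p from 0.183 to 0.235).

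Targets of ERK had differences in both directions. Of 18 tested targets and feedback genes, 1 rose and 17 did not pass, where 1.90% of all genes rose and 0.477% fell. The median was 0.19, against -0.02 for all genes. Etv1, a transcription factor of the ETS family, measured 8.75 and 9.06 in knockout ureter and 8.05 and 7.996 in wild type ureter, a rise of 0.88 (SE 0.14, adjusted p = 0.0368). It did not pass after repeated quantile normalization (adjusted p = 0.0574) or, at 0.183 and 0.225, with either wild type mouse left out. Other target genes were named after their values were seen. Etv5 differed by 0.74 (adjusted p = 0.0557) and Ccnd1, cyclin D1, by 0.71 (adjusted p = 0.0614), while Etv4 differed by -0.22 and the ERK phosphatases Dusp6 and Dusp4 by -0.12 and -0.46, none of them past the threshold.

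The cascade itself differed little. Of 17 tested adaptors and kinases from Grb2 to Map2k2, 0 passed by limma; an unadjusted p under 0.05 was met by 2, both higher, where 26.5% of all genes met it, 12.7% higher and 13.8% lower. The median was 0.08. The 3 of smallest p were the kinase gene Braf, at a difference of 0.40 (adjusted p = 0.103), and the Ras inhibitors Rasa1 at 0.31 and Nf1, which encodes neurofibromin, at 0.27. The differences of all 17 lay between -0.17 and 0.40.

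**Figure D5:**
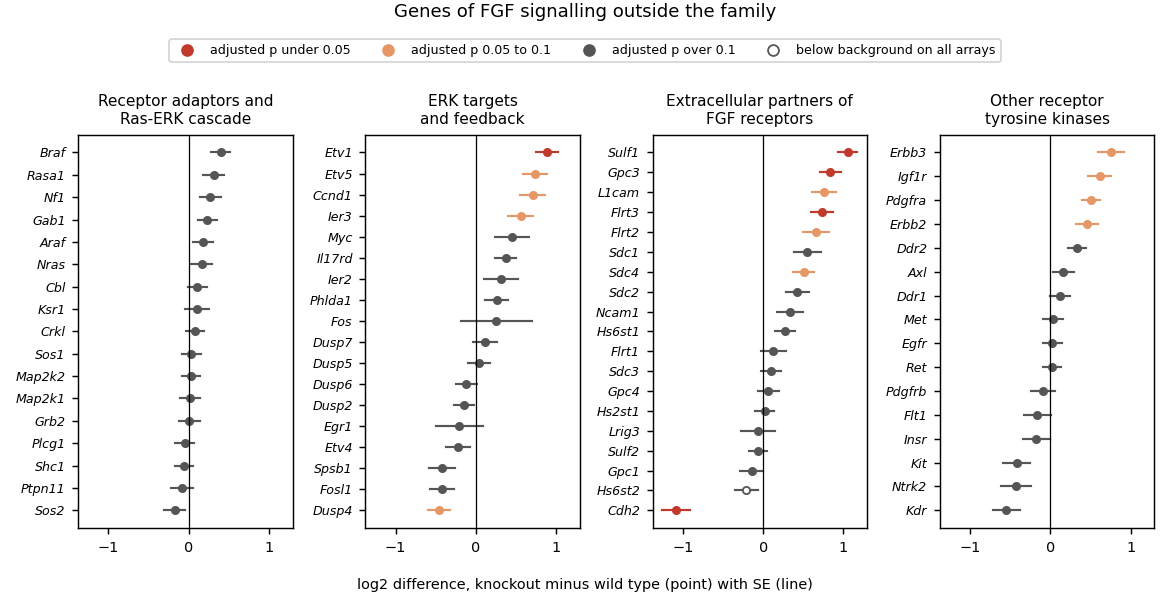
Log2 difference, knockout minus wild type (horizontal axis; point, estimate; line, SE), of 70 genes in 4 lists around FGF signalling. Sulf1, Gpc3 and Flrt3 stand near the top of the extracellular partners with Cdh2 at the bottom, Etv1 leads the ERK targets, and the adaptors and kinases lie close to 0.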

How the data were processed

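The arrays were Affymetrix whole-transcript arrays, hybridised with material from 500 ng of total RNA per ureter, as the labels' protocols state. The table holds 1 log2 value per probe set and array as the authors deposited it. The submitters' processing notes name RMA, R 2.15.0 and limma 3.12.1; the build used for the probe sets was not stated in them. RMA equalises the arrays, which would reduce a shift common to most genes. The deposited values still differed between arrays. Lower quartiles over the probe sets were 6.26 and 6.27 in knockout and 6.36 and 6.45 in wild type. Medians were 7.89 and 7.89 in knockout and 7.81 and 7.84 in wild type. Of 23309 probe sets, 20728 have 1 gene symbol in the platform annotation, 1174 several and 1407 none; the last 2 kinds were not named. The brightest probe set was kept for the 804 genes with more than 1.

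Knockout was compared with wild type in limma 3.58.1 (R 4.3.3, with lmFit, eBayes, Benjamini-Hochberg over 19296 genes, threshold 0.05). The fit was also run on simulated data with known changes, built from the gene means and spread of these arrays. Recovery of the known changes was checked only at a size larger than any difference of the members. SE is the moderated standard error. A fold against a genotype below background on both arrays is a bound against that level. The labels call the mice biological replicates. The replicate numbers mark no shared litter or day, and differences between replicates 1 and 2 were nearly uncorrelated between the genotypes (r = -0.028 across genes), so they were not used as pairs.

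The members, the gene lists and the brightness range were chosen with earlier results of these data known. Every member was named; of each pathway list, the genes that passed or else the 3 of smallest p were named. Of the 77 pathway genes listed, 70 were tested and the others were not analysed here. There were 12 alternatives: removing dim genes, adding the replicate block, repeated quantile normalization, centring on array medians, averaging probe sets, eBayes with an intensity trend or robust, weighting the arrays, and each mouse left out in turn; a threshold of 0.1 was tried too. Promoter sequences are from RefSeq.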

Additional observations from a re-analysis of the deposited data

How the results depend on the processing

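In the comparison of all genes 459 passed. The count was 2299 at an adjusted p under 0.1, 1922 with the replicate block, 204 with a further quantile normalization, 902 with robust eBayes, and 0 to 1744 with a mouse left out. Centred arrays gave 309 higher and 317 lower, against 367 higher and 92 lower. Of the FGF family 2 passed, against 10 at 0.1, 7 with the replicate block, 4 with robust eBayes and 0 to 6 with a mouse left out. The 5 gained with the replicate block were Fgf1, Fgf14, Fgf23, Fgfr3 and Fgfrl1, at adjusted p = 0.0267, 0.0179, 0.0379, 0.0322 and 0.0437. Of the pathway genes 5 passed, against 16 at 0.1, 16 with the replicate block, 3 with a further quantile normalization, 10 with robust eBayes and 0 to 13 with a mouse left out. Leaving out a wild type mouse leaves 1 residual degree of freedom per gene, as does leaving out a knockout mouse. The spread within a genotype then comes from the other genotype alone. The cause of the loss of all calls was not tested. The median difference of the family was -0.20, or -0.28 with centred arrays and -0.29 to -0.11 with a mouse left out. Of 462 repeats over the 39 genes, 432 kept direction and side of the threshold, 15 gained a call, 4 lost one and 11 changed sign. The replicate block, the removal of dim genes, the eBayes variants and the array weights left the differences as they were. Those repeats could not change a sign. With a further quantile normalization Fgf6 was at 0.048 and Fgfbp1 at 0.11. With a mouse left out the differences ranged from -0.47 to 0.25 for Fgf6, -0.15 to 0.049 for Fgfbp1, -0.37 to 0.17 for Fgfr4, -0.11 to 0.055 for Spry1, -0.29 to 0.036 for Spry2 and -0.45 to 0.0396 for Spry3. The cause of these changes was not tested.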

Other observations

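Of 16 other receptor tyrosine kinases that signal through ERK, 0 passed by limma. An unadjusted p under 0.05 was met by 5 that were higher and 2 that were lower, where 12.7% of all genes were higher and 13.8% lower at that threshold, and the median difference was 0.03. The 3 of smallest p were all higher in knockout. Erbb3, a receptor of epithelium, measured 9.78 and 9.99 in knockout ureter, against 8.95 and 9.32 in wild type ureter, a difference of 0.75 (adjusted p = 0.0581). The difference of Erbb3 was 0.86 without knockout replicate 1. Pdgfra, a receptor of mesenchymal cells, differed by 0.51 (adjusted p = 0.0658) and Igf1r by 0.61 (adjusted p = 0.0659). The vascular receptor Kdr, named after its values were seen, differed by -0.55 (adjusted p = 0.104).

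Some members lie next to each other in the mouse gene table. Fgf1 and Spry4, with 2 protein-coding genes between them on chromosome 18, differed by 0.65 and -0.24. Fgf2 and Spry1, with 2 between them on chromosome 3, differed by 0.25 and -0.027. Fgf3, Fgf4 and Fgf15 are direct neighbours on chromosome 7 and differed by -0.34, -0.26 and -0.32. All of them were dim, with knockout means of 6.63, 6.74 and 6.75 near the background level, and none passed. Fgf6 and Fgf23 are direct neighbours on chromosome 6; Fgf6 was below background on all arrays and Fgf23 in both knockout mice.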
